A study of Mus musculus with 6 samples.

Results

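The miR-200 family was followed through both of its gene clusters and both arms of its hairpins in 2 sorted populations of mouse mammary epithelium. Its 9 members were taken by name from the 1247 mouse miRNAs on the array. They are the 3p arms mmu-miR-200b-3p, mmu-miR-200a-3p, mmu-miR-429-3p, mmu-miR-200c-3p and mmu-miR-141-3p and the 5p arms mmu-miR-200b-5p, mmu-miR-200a-5p, mmu-miR-200c-5p and mmu-miR-141-5p, given below without the species prefix. The cells came from virgin wild-type mice of the strain FVB/N-J (FVB in the sample titles) and were sorted as lineage-negative and CD24-positive. The population named P4 has high CD29 (integrin beta 1) and is labelled as enriched for MaSC, the mammary stem cells. The population named P5 has low CD29 and is labelled as luminal or luminal progenitor enriched. Each population had 3 single-colour arrays. The labels used here give no age, and do not say that the 3 arrays of a population stem from different mice or sorts. The spread behind each p-value is therefore that between these arrays only and may be technical.

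A miRNA gene is transcribed as a long precursor, from which a hairpin is cut and then a duplex of its 5p and 3p arms, of which usually 1 is kept and loaded into the silencing complex. Bases 2 to 8 of the loaded arm, the seed, largely decide which messages it represses. The miR-200 family is known for repressing Zeb1 and Zeb2, transcription factors that silence E-cadherin and other epithelial genes, and Zeb1 and Zeb2 in turn repress both miR-200 clusters. In the mammary gland miR-200c is known as a repressor of the self-renewal factor Bmi1.

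The mature sequences below show how the family is divided, with the seed in capitals. They are RefSeq's for the build GRCm38.p6, where all 9 members were matched by name. The first 5 are the 3p arms:
miR-200b-3p: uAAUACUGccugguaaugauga
miR-200c-3p: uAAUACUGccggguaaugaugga
miR-429-3p: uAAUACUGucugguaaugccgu
miR-200a-3p: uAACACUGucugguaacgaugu
miR-141-3p: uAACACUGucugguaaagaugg
The 4 measured 5p arms, from the opposite side of the hairpins, have other seeds:
miR-200b-5p: cAUCUUACugggcagcauugga
miR-200a-5p: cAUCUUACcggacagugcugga
miR-200c-5p: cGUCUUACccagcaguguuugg
miR-141-5p: cAUCUUCCagugcaguguugga

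The 3p arms thus form 2 seed groups, miR-200b, miR-200c and miR-429 with AAUACUG and miR-200a and miR-141 with AACACUG, which differ at 1 base, the substitution U4C from the first seed to the second, counted from 1 at the 5′ end of the miRNA. Each gene cluster holds both seeds. The hairpins of miR-200b, miR-200a and miR-429 lie on the minus strand of chromosome 4 at chr4:156055681-156055750, chr4:156054896-156054985 and chr4:156053905-156053987, within 1846 bases. Those of miR-200c and miR-141 lie on the minus strand of chromosome 6 at chr6:124718322-124718390 and chr6:124717914-124717985, within 477 bases. No protein-coding gene of the RefSeq table overlaps either span. The nearest are Ttll10 and 9430015G10Rik beside the first and Phb2 and Ptpn6 beside the second. Among 1008 other array miRNAs with a sequence in the RefSeq table, 0 had the seed of a member.

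Members of a seed group in different clusters are close in sequence. miR-200a-3p and miR-141-3p differ at 2 of 22 bases (C17A and U22G), and miR-200b-3p and miR-200c-3p differ at 2 of the 22 they share (U11G and A22G), with 1 more base at the end of miR-200c-3p. Binding of 1 miRNA to the probe of another was not tested, and probe sequences were not used here. The hairpin of miR-141, the only one of the 5 with a 5p member that passed the test below, shows where the arms lie (arms in capitals):
Mir141: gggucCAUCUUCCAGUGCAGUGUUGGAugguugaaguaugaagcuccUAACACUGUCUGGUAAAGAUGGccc

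Signals are given as multiples of the array's scaling signal, the 75th percentile of the miRNAs detected on all 6 arrays, which was 186, 382 and 273 intensity units on P4 replicates 1, 2 and 3 and 526, 457 and 315 in P5 (exact permutation test, 2-sided, p = 0.2; with 3 arrays each it cannot go below 0.1). The arrays detected 325 to 384 miRNAs in P4 and 367 to 419 in P5. Their number limits the precision of all values. Each member was read from 40 spots per array, and on the 3p arms the coefficient of variation between the spots of a probe had a median of 4.28% (1.64% to 8.97% over 60 probe readings). Probes of different miRNAs bind with different strength, and no level is compared between members.

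All 5 3p arms were detected on every array, with 100% of their spots well above background, and all 5 were lower in P4 than in P5. The folds ran from 1.75 for miR-429-3p to 3.35 for miR-141-3p. Of the 9 members 6 were tested, and all 6 had an adjusted p under 0.05 (limma with Benjamini-Hochberg adjustment over the 370 tested miRNAs, 2-sided, n = 3 arrays each) with a lower value in P4. Of all tested miRNAs 14.1% were called lower in P4 and 13.8% higher. P4 and P5 values did not overlap for any tested member, against 21.6% of tested miRNAs without overlap and lower in P4. The median difference of the tested members was -1.25 on the log2 scale, and that of all tested miRNAs 0.0013. Of the 6, miR-141-5p passed the filter only through P5, with all its P4 values set at the floor. Its call, its lack of overlap and its part in the median therefore depend on that floor. The 5 3p arms alone had a median of -1.33. In sorted bulk samples, fewer cells with a miRNA and less of it per cell cannot be told apart.

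**Figure D1:**
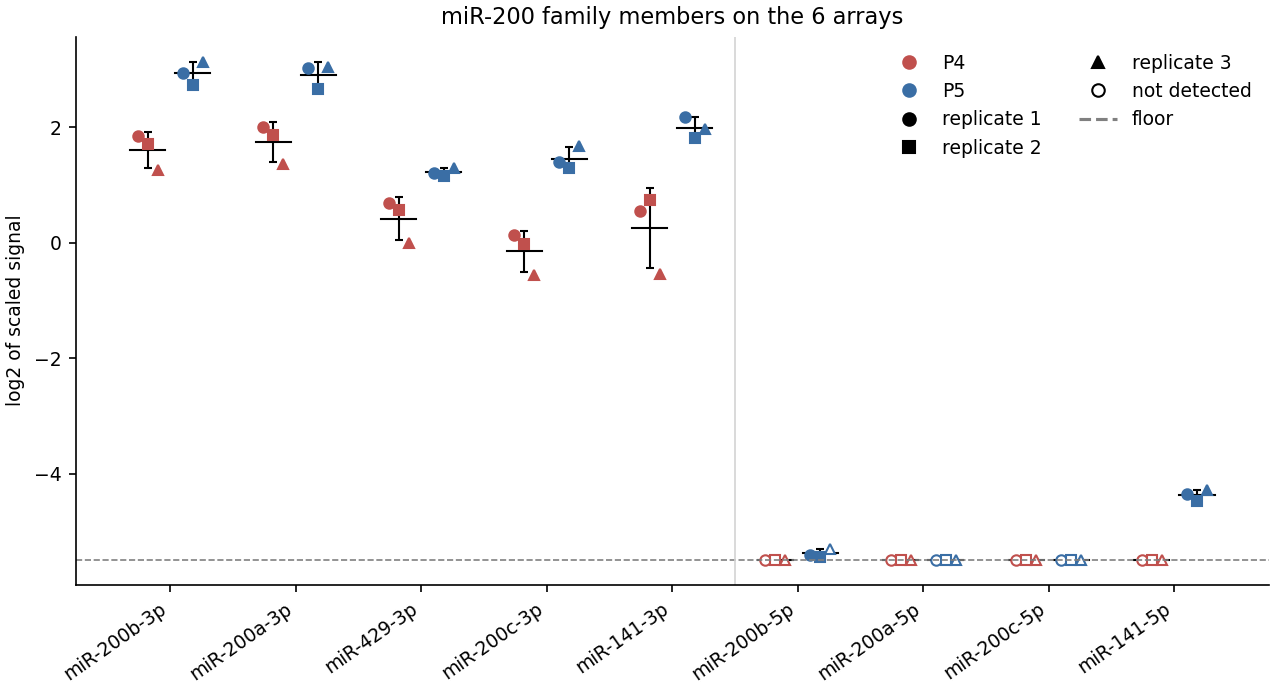
Log2 of the scaled signal (vertical axis) of the 9 members on the 3 P4 and 3 P5 arrays, with group means and SD (n = 3); open symbols are arrays where the member was not detected and the dashed line is the floor at -5.49. All 3p arms lie lower in P4, with the P4 array of replicate 3 lowest in each, and of the 5p arms miR-141-5p alone stands clear of the floor, in P5.

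Within the chromosome 4 cluster, miR-200b-3p, which carries the seed AAUACUG, had scaled signals of 3.62, 3.29 and 2.40 on P4 replicates 1 to 3 and of 7.69, 6.69 and 8.82 in P5. Its highest P4 array was thus below its lowest P5 array. The log2 difference was -1.33 ± 0.21 (SE; 95% interval -1.81 to -0.85), or 2.51-fold lower in P4 (limma adjusted p = 0.00253).

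miR-200a-3p, its neighbour with the other seed, was at 4.03, 3.65 and 2.57 in P4 and at 8.13, 6.33 and 8.27 in P5. Again P4 replicate 3 was lowest and no P4 array reached the P5 range. The difference was -1.17 ± 0.22, or 2.24-fold lower in P4 (limma adjusted p = 0.00591). The profiles of these 2 miRNAs over the arrays ran close together, and their difference changed by 0.16 on the log2 scale between the populations.

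miR-429-3p, the last hairpin of this cluster, which shares its seed with miR-200b-3p, differed least. It was at 1.62, 1.48 and 0.997 in P4 and at 2.31, 2.24 and 2.46 in P5, with close agreement among the P5 arrays. The difference was -0.80 ± 0.21 (95% interval -1.30 to -0.31), or 1.75-fold lower in P4 (limma adjusted p = 0.0243). This call was the least secure of the family: it was lost without P5 replicate 1, 2 or 3 (-0.81, -0.83 and -0.77; limma adjusted p = 0.0805, 0.0638 and 0.0539) and in 5 other settings given in the closing section.

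In the chromosome 6 cluster, miR-200c-3p was at 1.10, 0.981 and 0.684 in P4 and at 2.65, 2.45 and 3.22 in P5. The brightest P4 array was below the dimmest P5 array. The difference was -1.61 ± 0.22 (95% interval -2.13 to -1.09), or 3.05-fold lower in P4 (limma adjusted p = 0.0015).

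miR-141-3p, its partner with the seed of miR-200a-3p, was at 1.47, 1.67 and 0.686 in P4 and at 4.56, 3.53 and 3.93 in P5. P4 replicate 3 stood at less than the other P4 arrays by more than for any other member, at -0.79 from the P4 mean on the log2 scale against -0.35 to -0.42 for the other 3p arms. The difference was -1.74 ± 0.34 (95% interval -2.54 to -0.95), or 3.35-fold lower in P4 (limma adjusted p = 0.00685). Without P4 replicate 3 it was -1.35 (limma adjusted p = 0.00271).

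Among the 370 tested miRNAs, ordered from the lowest difference, miR-141-3p and miR-200c-3p stood at places 7 and 8, miR-200b-3p at 19, miR-200a-3p at 23, miR-141-5p at 28 and miR-429-3p at 42. The 95% intervals of all 6 overlap one another. The 2 probes of each 3p arm gave nearly the same difference, with -1.65 and -1.57 for miR-200c-3p as the widest pair, and P4 and P5 did not overlap on any of these 10 probes.

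**Figure D2:**
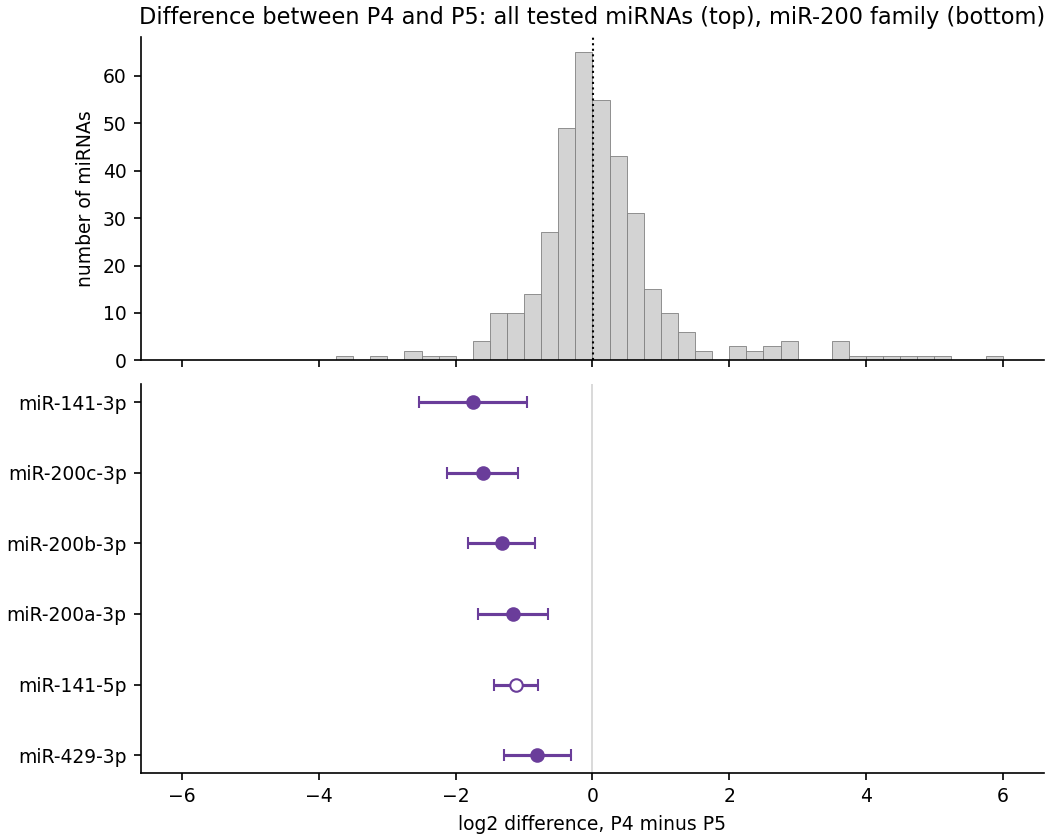
Top, number of the 370 tested miRNAs (vertical axis) by log2 difference between P4 and P5, with a dotted line at their median of 0.0013; bottom, the 6 tested members with 95% intervals, filled for 3p arms and open for miR-141-5p. All 6 intervals lie below 0, from -0.80 for miR-429-3p to -1.74 for miR-141-3p. That of miR-141-5p rests on P4 values set at the floor.

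The clusters and the seed groups were compared through the differences of their members, each centred on its own mean over the 6 arrays. The chromosome 6 cluster averaged a difference of -1.68 and the chromosome 4 cluster -1.10, a gap of -0.58 on the log2 scale. Array by array, the centred value of the chromosome 6 cluster less that of the chromosome 4 cluster was -0.25, -0.11 and -0.50 in P4 and 0.32, 0.29 and 0.26 in P5. The 2 populations did not overlap in this gap. It was given no p, as a score over chosen members, and 3 against 3 arrays could not reach a p under 0.1 in an exact permutation test.

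miR-429-3p carried part of the cluster gap. Without it, a choice made after its values were seen, the gap was -0.43, with P4 at -0.17, -0.02 and -0.44 and P5 at 0.22, 0.27 and 0.15, still without overlap. Both seed-matched pairs lay the same way: miR-141-3p less miR-200a-3p differed by -0.58 between the populations and miR-200c-3p less miR-200b-3p by -0.28, and in neither did P4 and P5 overlap. Pairs within the chromosome 4 cluster did not overlap either. There miR-429-3p less miR-200b-3p differed by 0.53 and miR-200a-3p less miR-200b-3p by 0.16. A lack of overlap is therefore not particular to pairs between the clusters.

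The seed groups differed less. The pair with AACACUG averaged -1.45 and the trio with AAUACUG -1.25, a gap of -0.21. Here the arrays overlapped, with -0.09, 0.08 and -0.30 in P4 and 0.28, 0.03 and -0.0022 in P5. Without P4 replicate 3 the gap was -0.11. Within the chromosome 6 cluster, miR-141-3p less miR-200c-3p differed by -0.13 between the populations, and its arrays overlapped as well.

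**Figure D3:**
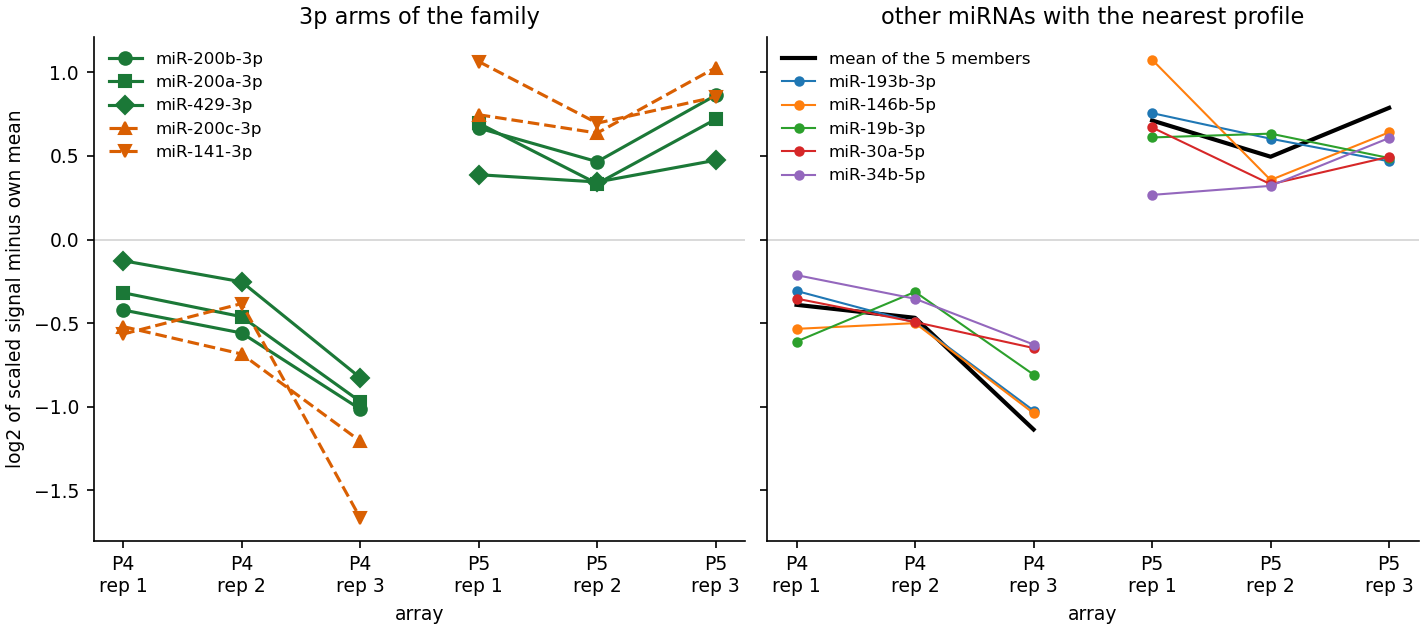
Log2 of the scaled signal less each miRNA's own mean over the 6 arrays (vertical axis) by array (horizontal axis); left, the 5 3p arms, with the chromosome 4 cluster in solid green and the chromosome 6 cluster in dashed orange; right, the mean of the 5 beside the 5 other miRNAs of nearest profile. All lines are below 0 in P4 and above it in P5, and the members lie lowest on P4 replicate 3, where miR-141-3p is at -1.67.

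The 5p arms, the strands that are mostly discarded, gave little or no signal. miR-141-5p was detected on all 3 P5 arrays, with scaled signals of 0.0491, 0.0448 and 0.0512, and on no P4 array, where it was at -0.0011, 0.0072 and -0.0013. In P5 21, 20 and 9 of its 40 spots were well above background, and in P4 0 were on any array. Against P4 arrays all set at the floor it was 2.17-fold higher in P5 (limma adjusted p = 0.000817). On each P4 array the floor lay above both the lowest detected signal and the miRNA's own signal. The fold therefore depends on the chosen floor and is no minimum. The scaling signals were 186, 382 and 273 on the P4 arrays and 526, 457 and 315 on the P5 arrays. The part of array brightness in its detection was not tested.

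The probes of miR-141-5p disagreed in size. In P5 they averaged -5.40, -4.71, -4.01 and -3.82 on the log2 scale, while all 4 stood at the floor in P4. With normexp background correction its difference turned to 0.13 (limma adjusted p = 0.638), and with the floor doubled it was -0.12 (limma adjusted p = 0.243), while with the floor halved it was -2.12.

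miR-200b-5p was detected on P5 replicates 1 and 2 and on no other array. Its scaled signals in P5 were 0.0237, 0.0231 and 0.0255, just above the floor of 0.0223, and 1, 2 and 0 of its 40 spots were well above background there. It was not tested. miR-200a-5p and miR-200c-5p were detected on no array, with scaled signals of at most 0.0179 and 0.0093, under the floor in each. The 5p arm of miR-429, which is not among the members, was detected on no array either. Of the miR-141 hairpin, the 3p arm stood higher in P5. Its 5p arm was detected in P5 only, with a difference whose size and direction depend on the floor and background correction. For the other 3 hairpins with a 5p member no comparison of the arms was possible at this signal.

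The 3p arms also shared their spread within P4. All 5 were lowest on replicate 3, with a mean deviation of -0.47 from the P4 mean on the log2 scale against 0.27 and 0.20 on replicates 1 and 2. In P5 the mean deviations were smaller, at 0.05, -0.17 and 0.12. The SD over arrays was larger in P4 than in P5 for each of the 5 (0.31 to 0.69 against 0.07 to 0.22). How many of all tested miRNAs shared either trait was not counted. The markers of contractile cells and of the basal layer, given below, were also under their P4 means on replicate 3.

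Markers of other cells were measured on the same arrays, where 13.8% of all tested miRNAs were called higher in P4. Both endothelial markers, the arms of miR-126, were called higher in P4, with a summed scaled signal of 8.09 to 20.6 in P4 and 0.767 to 2.32 in P5. Neither arm passed when the array row was a block (2.34 and 2.25, limma adjusted p = 0.101 and 0.104) or without a filter (limma adjusted p = 0.146 and 0.15). On P4 replicate 3 their mean deviation was 0.82, the opposite of the family's. The 6 leukocyte markers summed to 1.11 to 3.61 in P4 and 0.730 to 1.01 in P5, with 2 of 6 called higher, and deviated by 0.59 on that array. Of 5 mesenchymal markers 3 were called higher, and the other 2, miR-127-3p and miR-214-3p, went undetected throughout. The mesenchymal sums were 1.06 to 2.99 in P4 and 0.126 to 0.161 in P5, and the 3 detected deviated by 0.78. Among these calls, miR-199a-5p, miR-199b-5p and the leukocyte marker miR-146a-5p passed the filter only through P4. They were detected on 1, 2 and 2 of the 3 P5 arrays.

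Markers of contractile cells lay the other way on that array. All 4 arms of miR-143 and miR-145a, which myoepithelium and smooth muscle make, were called higher in P4 (sums 17.3 to 30.5 against 0.661 to 0.783) and deviated by -0.34 on replicate 3. miR-205-5p, a marker of the basal layer, was at 7.74 to 13.3 in P4 and 0.953 to 1.59 in P5 and deviated by -0.32. Of 4 skeletal muscle markers 3 were called higher (sums 0.465 to 0.790 against 0.0218 to 0.0317), with miR-206-3p detected on no array. Those 3, like miR-143-5p above, passed the filter only through P4, and their P5 values were all at the floor. Of 3 erythroid markers 2 were on the array and 0 could be tested. The part of these cells in the miR-200 differences was not tested. Without P4 replicate 3 all 6 members were still called, and their median was -1.14.

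The family was next set beside the other miRNAs linked to epithelial-mesenchymal transition, the loss of epithelial traits that Zeb1 and Zeb2 drive. The lists of these miRNAs were chosen with earlier results of these data known. Of 12 miRNAs held to favour the epithelial state, all on the array, 9 were detected and 8 tested. Of these 8, 5 were called lower in P4 and 1 higher, against 14.1% and 13.8% of all tested miRNAs. Their median difference was -0.73 against 0.0013 for all tested miRNAs. Among the 8, miR-34a-5p, miR-192-5p and miR-194-5p passed the filter only through P5, and the first 2 of these are among the calls. With detection on all 6 arrays as the filter, 3 of the list were called lower and its median was -0.80. miR-34a-5p, a p53 target that represses Snai1, fell by 3.20 ± 0.31 on the log2 scale in P4 (limma adjusted p = 0.000298), with detection on 2 of 3 P4 arrays. Its call was lost with Agilent's summed signal and the authors' values (limma adjusted p = 0.127 and 0.0957), and with normexp it was at -1.24. miR-203-3p, known from differentiating epidermis and for repressing Snai2, fell by 2.70 ± 0.28 (limma adjusted p = 0.000321; -1.17 with normexp).

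The remaining calls of that list were smaller or opposite. miR-30a-5p fell by 0.997 ± 0.16 and miR-34b-5p by 0.80 ± 0.18 (limma adjusted p = 0.0034 and 0.0127). miR-192-5p, detected on no P4 array, passed the filter only through P5. It was 1.59-fold higher there than the undetected signal in P4, which is no minimum, and with the floor doubled its difference was -0.34. With normexp miR-34b-5p was at -0.0124 and miR-192-5p at 0.27. miR-205-5p, which like miR-200 represses Zeb1 and Zeb2, went against the family and rose by 2.88 ± 0.28 in P4 (limma adjusted p = 0.000298). miR-101a-3p and miR-194-5p did not pass, at -0.36 and -0.42. miR-34c-5p, detected on 2 P4 arrays and no P5 array, was not tested; its log2 scaled signals were -3.73, -4.08 and -4.70 in P4, opposite to miR-34a-5p and miR-34b-5p, with every P5 array at the floor.

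Of 8 miRNAs held to favour the mesenchymal state or to lower miR-200, 7 were tested, with a median of 1.11. Of these 7, 4 were called higher in P4 and 0 lower, against 13.8% and 14.1% of all tested miRNAs. miR-222-3p and miR-221-3p, which share a seed and a transcript, rose by 2.60 ± 0.26 and 2.27 ± 0.17 (limma adjusted p = 0.000321 and 6.56e-05). miR-22-3p, which is known in mammary cells to lower miR-200 by way of the Tet enzymes, rose by 1.11 ± 0.23, and miR-10b-5p by 1.19 ± 0.28 (limma adjusted p = 0.00979 and 0.0158). With no scaling these 2 were at 0.46 and 0.53 and did not pass (limma adjusted p = 0.343 and 0.338). miR-103-3p and miR-107-3p, which target Dicer, the enzyme that cuts hairpins, were at 0.09 ± 0.13 and 0.13 ± 0.14, and miR-155-5p at 0.47 ± 0.27, and none of these passed. Their direction was negative with no scaling and with the authors' processed values, and for the first 2 also when scaled over all miRNAs.

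Likeness to the family was measured as the root mean square difference, over the 6 arrays, between a centred profile and the mean centred profile of the 5 3p arms, among the 288 other miRNAs detected on all arrays. The nearest were miR-193b-3p (0.15 on the log2 scale), miR-146b-5p (0.18), miR-19b-3p (0.22), miR-30a-5p (0.24) and miR-34b-5p (0.31). All points share the 6 arrays and their scaling, and the contrast between P4 and P5 makes up most of each profile. The differences of the first 3 were -1.22 ± 0.22, -1.38 ± 0.24 and -1.15 ± 0.17.

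Members were then set against the mean of the other 4. miR-200b-3p and miR-200a-3p were nearer to it (0.09 and 0.13) than any of the 288 others, while 2 others were nearer than miR-200c-3p, 4 than miR-429-3p and 15 than miR-141-3p. The last 3 are those with the largest and smallest differences between the populations.

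The slide allowed 1 check within a batch. All 6 arrays lay on 1 slide, with the P4 arrays and P5 replicate 1 in its first row. With the row as a block, which sets the P4 arrays against that P5 array alone, the 3p differences were -1.33 for miR-200b-3p, -1.28 for miR-200a-3p, -0.79 for miR-429-3p, -1.55 for miR-200c-3p and -1.94 for miR-141-3p. The first and the fourth passed (limma adjusted p = 0.048 and 0.0391), and the others did not (limma adjusted p = 0.0637, 0.171 and 0.0705, in the order given).

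**Figure D4:**
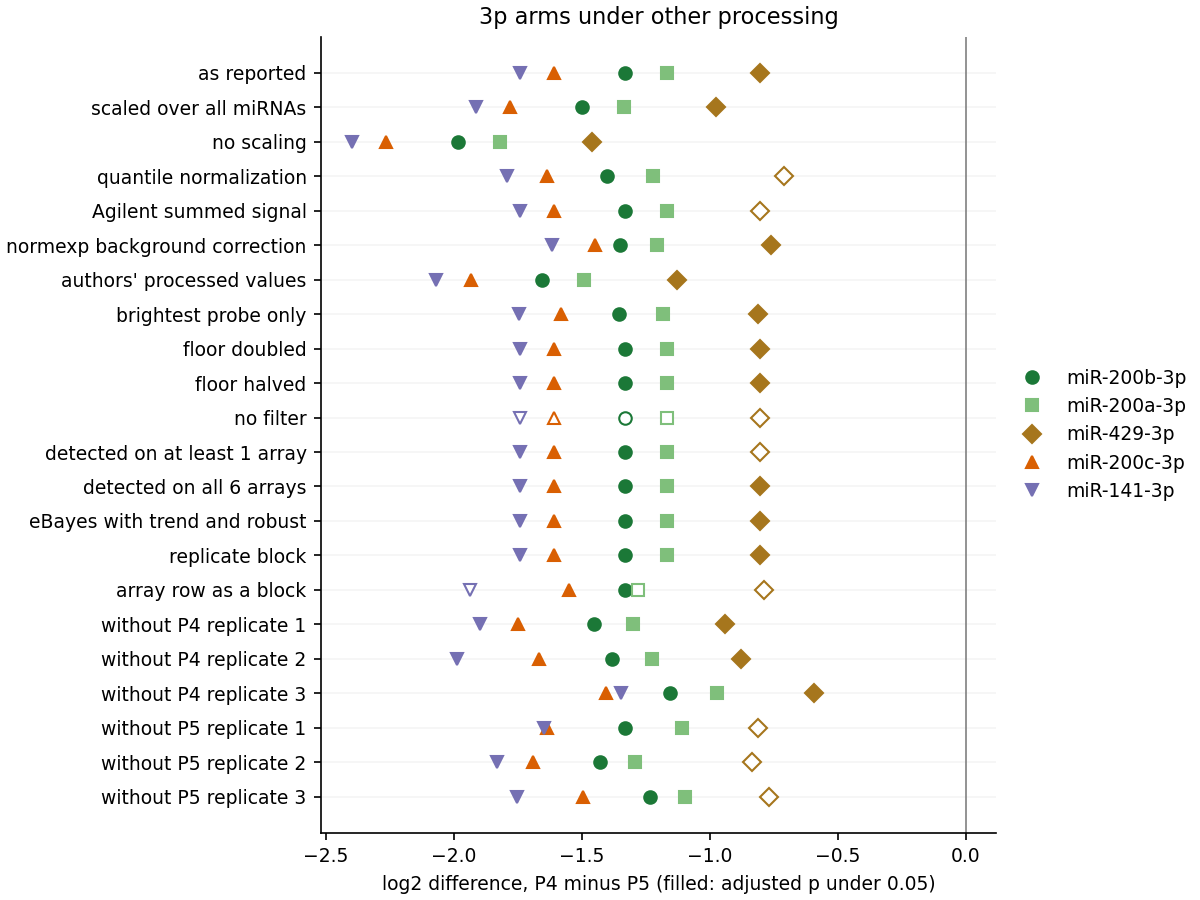
Log2 difference between P4 and P5 (horizontal axis) of the 5 3p arms as reported and under 21 other settings (vertical axis), filled where the limma adjusted p was under 0.05. Every value is below 0, and miR-429-3p is the member whose call is lost most often, in 8 settings.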

How the data were processed

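Per the labels' protocols, a Cy3-labelled preparation of small RNA was hybridised to single-colour Agilent arrays. The authors deposited scanner files with a linear intensity for every spot, background-subtracted and with no scaling between arrays; the file headers name Feature Extraction 11.0.1.1 and the submitters' processing notes 11.0. A second table, of log2 values the authors deposited, was rebuilt to within 7.8e-06 from Agilent's summed signal by adding a shift per array and a constant per row, so its scale and direction are known and the origin of the row constants is not. Its columns had medians of 0.42, -0.36 and -0.06 (P4) and of -0.56, -0.47 and 0.06 (P5). Undetected miRNAs stand at 0.1 in the summed signal.

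Control and outlier spots were dropped, and the processed signal was averaged over spots, then over probes. Arrays were scaled by the 75th percentile of the miRNAs that every array detected. As a floor served the 95th percentile of the undetected miRNAs (median of the arrays), a scaled signal of 0.0223, or a log2 of -5.49. Detected means flagged so by Agilent's software. A miRNA was tested if all 3 arrays of either population detected it, which left 370. limma 3.58.1 was run under R 4.3.3 with lmFit and default eBayes, 2-sided and without a block, and p-values were adjusted by Benjamini-Hochberg with a threshold of 0.05. The calling step was tested on simulated data. Saturated spots numbered 0 on each array.

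Named miRNAs are the members, those linked to epithelial-mesenchymal transition and the 5 of nearest profile. Members and lists were chosen with earlier results of these data known. Of 3 erythroid markers 2 matched an array name. Of 1247 array names 1017 were matched in the RefSeq sequence table (GRCm38.p6); the file headers name mm9, and no array coordinate was used. The alternatives were other scalings, signals, floors, filters and blocks, normexp on the median spot signal (offset 50), and leaving out each array with the scaling and the tested set kept. A slide or scan block could not be fitted, as all arrays shared 1 slide and 1 scan.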

Additional observations from a re-analysis of the deposited data

How the results depend on the processing

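Across 21 alternatives the 3p arms stayed lower in P4, with miR-200b-3p between -1.98 and -1.16, miR-200a-3p between -1.82 and -0.97, miR-200c-3p between -2.26 and -1.41, miR-141-3p between -2.40 and -1.35 and miR-429-3p between -1.46 and -0.59. The 6 members called lower became 1 (miR-141-5p) with no filter, which puts 1247 miRNAs in the test and leaves the differences as they were (limma adjusted p = 0.0534 to 0.246 for the 3p arms). They became 3 when the array row was a block, and 5 to 6 without each array in turn. miR-429-3p was also lost with quantile normalization (-0.71), Agilent's summed signal and detection on 1 array as the filter (limma adjusted p = 0.0513, 0.0582 and 0.0521); the cause was not tested.

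The members' median was -1.90 with no scaling, -1.79 with the authors' values and -1.38 to -1.14 without each array. Relative to the median of all tested miRNAs, which these settings moved to between -0.64 and 0.29, it lay between -1.57 and -1.09. The gap between the clusters was -0.43 with normexp (-0.25 without miR-429-3p), and that between the seed groups -0.38 when the array row was a block; without each array they were -0.66 to -0.47 and -0.30 to -0.11.

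All miRNAs called lower and higher in P4 numbered 52 and 51 as reported, 77 and 47 scaled over all miRNAs, 77 and 23 with no scaling, 25 and 55 with normexp, 81 and 31 with the authors' values, 22 and 25 with no filter, 23 and 29 by array row, and 40 to 56 and 43 to 72 without each array. With normexp limma's prior degrees of freedom were infinite (3.14 as reported), so its p-values rest on 1 variance shared by all miRNAs. Undetected miRNAs stand at a set number in the summed signal, which the authors' values carry over with a shift per array and a constant per row. The -6.67 for miR-141-5p in the authors' values is therefore no measured distance. With normexp miR-141-5p (0.13), miR-192-5p (0.27) and miR-194-5p (0.28) turned. miR-103-3p (-0.0774, -0.56 and -0.23) and miR-107-3p (-0.0401, -0.52 and -0.20) turned scaled over all miRNAs, with no scaling and with the authors' values, miR-107-3p also with quantile normalization (-0.0683), and miR-155-5p (-0.18 and -0.15) with no scaling and the authors' values. The 5 epithelial-list calls became 3 with normexp, detection on all 6 arrays or the row block, and the 4 mesenchymal-list calls 2 with no scaling, the authors' values, no filter or the row block.

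With the replicate block 6 members were called, and 57 and 54 of all miRNAs were lower and higher. Same-numbered arrays share only a number: their deviations correlated at -0.0696, 0.37 and 0.0863, and not every array correlated best with its own number.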
